A study of Arabidopsis thaliana with 18 samples.

Results

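Transcripts of 5 Arabidopsis genes tied to the hormone jasmonate are described here in seedlings with raised or lost function of LBD37 and LBD38, transcription factors of the LBD family that are known as repressors of nitrogen-responsive genes. The genes are PDF1.2 (AT5G44420) and PDF1.2b (AT2G26020), which encode plant defensins, THI2.1 (AT1G72260) and AT1G66100, which encode thionins, and JMT (AT1G19640), which encodes the enzyme that methylates jasmonic acid. They were chosen by locus from the array's gene table, with their signals on these same arrays already known, out of 13356 genes that have a probe set listed with exactly 1 gene. Their own differences between groups are therefore given as a description, with no p-value. Further below, how many of them passed a threshold is set beside the share of all probe sets. Nothing is read from those counts or from the calls behind them. Each of the 5 had 1 such probe set. The PDF1.2b probe set has a name ending that marks probes shared with other transcripts, so its signal cannot be assigned to PDF1.2b alone. In the TAIR10.1 annotation PDF1.2 is next to PDF1.2c and PDF1.2b is next to PDF1.3, with 0 genes between each pair.

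Jasmonates are lipid-derived hormones made after wounding and on attack by insects or by pathogens that feed on dead tissue. The active conjugate binds the receptor COI1, which sends JAZ repressor proteins to degradation and frees transcription factors. One branch works through MYC2, MYC3 and MYC4. Another, shared with ethylene and its factor EIN3, works through ERF1 and ORA59 and switches on PDF1.2. Defensins and thionins are small, cysteine-rich, antimicrobial peptides. PDF1.2 is widely used as a marker of combined jasmonate and ethylene signalling, and THI2.1 responds to jasmonate in Arabidopsis seedlings. JMT makes methyl jasmonate, a volatile form of the hormone.

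Total RNA from whole 9-day-old Col-0 seedlings was measured on 18 Affymetrix arrays, 3 biological replicates in each of 6 groups. LBD37 overexpressers, LBD38 overexpressers and wild type had 7 days with 4 mM KNO3 and then 2 days with no nitrogen added. The lbd37-1 and lbd38 mutants, each with a T-DNA insertion, and wild type had 4 mM KNO3 for all 9 days. The labels do not state the promoter or the number of transgenic lines behind the overexpressers, or where the insertions lie, and they describe both liquid culture and an agar stage. Nothing in the gene table names LBD37 or LBD38 (0 probe sets each), so the labels were not checked against the targeted genes. No sample combined an overexpresser with full nitrogen, or a mutant with depletion.

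Values are log2 signals, on which a difference of 1 is a doubling of the linear signal, and levels of different probe sets were not compared with each other. Array medians lay between 6.87 and 7.06 and pairs of arrays within a group correlated at 0.988 to 0.998. LBD37 overexpresser replicate 3 differed most from its group. It had the lowest median of all arrays, and 2.89 units between its lower and upper quartiles, against 3.06 to 3.28 on the other 17. On it 50 probe sets were over 1 unit above both other arrays of its group and 30 as far below. The lbd38 replicate 3 had 24 probe sets above and 1 below by that measure, and every other array at most 11 above and 20 below. In whole seedlings, fewer cells of a type and less RNA per cell cannot be told apart. Tests below use limma over all 22746 probe sets, with Benjamini-Hochberg adjustment within each comparison and a threshold of 0.05. The overexpressers share the depleted wild-type arrays, the mutants share the replete ones, and the depletion comparison uses both.

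PDF1.2 was highest in LBD37 overexpressers and lowest in the lbd37 mutant and replete wild type. Its log2 signal in LBD37 overexpressers was 9.41, 7.94 and 8.41 on the 3 arrays, against 5.13, 5.53 and 5.50 in depleted wild type. Every overexpresser array was above every wild-type array. The means were 8.58 ± 0.75 and 5.39 ± 0.22 (SD, n = 3 each), a difference of 3.20 ± 0.42 (SE), or 9.17-fold. LBD38 overexpressers had 7.15, 7.34 and 5.79, also all above the depleted wild type, with a difference of 1.37 ± 0.42 or 2.59-fold. Replicate 3 was the low array, nearest to wild type. The LBD37 and LBD38 overexpressers did not overlap each other either, and LBD37 overexpressers were 1.82 ± 0.42 higher, or 3.54-fold.

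In full nitrogen PDF1.2 separated the mutants. The lbd38 arrays read 6.66, 6.24 and 8.13, against 4.61, 4.30 and 4.33 in replete wild type. No arrays overlapped and lbd38 was 2.595 ± 0.423 higher, or 6.04-fold. Replicate 3 was the highest lbd38 array, and without it the difference was 2.03. The lbd37 arrays read 4.25, 4.34 and 4.53 and overlapped replete wild type, with a difference of -0.04 ± 0.42. Set against lbd38, lbd37 was lower by 2.64 ± 0.42 with no overlap. PDF1.2 had high values both with LBD38 overexpression in depletion and in the lbd38 mutant in full nitrogen, 2 comparisons that differ in the nitrogen supply and share no array.

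In wild type alone, PDF1.2 stood at 5.13, 5.53 and 5.50 after depletion, against 4.61, 4.30 and 4.33 in full nitrogen. The groups did not overlap, and the depleted seedlings were 0.97 ± 0.42 higher, or 1.96-fold. The SE pools the spread of all 6 groups, whose SDs ran from 0.14 in lbd37 to 0.99 in lbd38. In depleted and replete wild type the SDs were only 0.22 and 0.17. Ordered by mean, the 6 groups ran from LBD37 overexpressers through lbd38, LBD38 overexpressers, depleted wild type and replete wild type to lbd37. Arrays of neighbours in that order overlapped except between LBD38 overexpressers and depleted wild type and between the wild-type groups. On 7 of the 18 arrays PDF1.2 was below the array's lower quartile, which lay between 5.19 and 5.34, so its low values are near the dim end of the scale, where arrays understate fold changes.

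**Figure D1:**
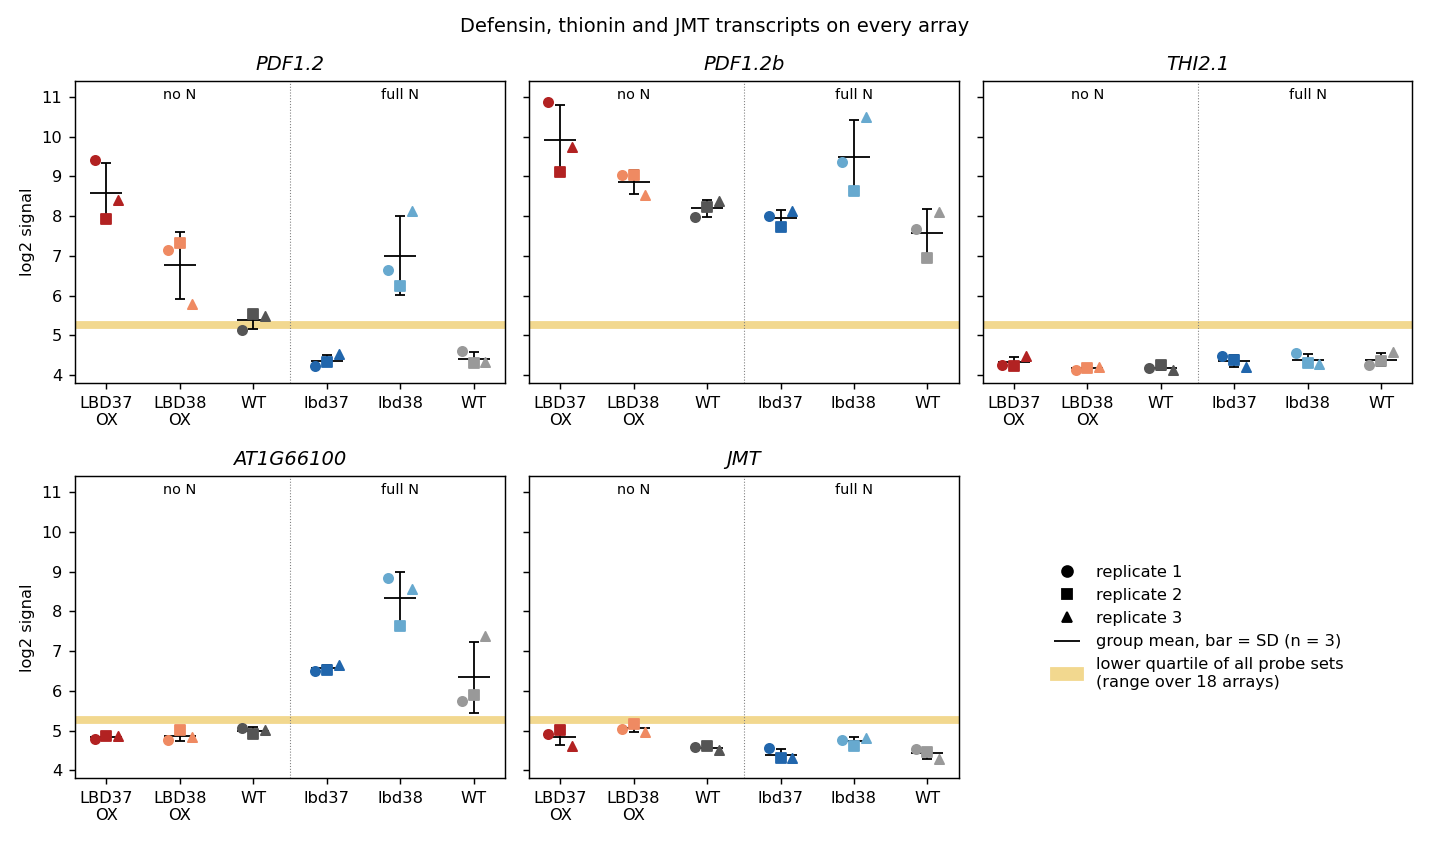
Log2 signal of each of the 5 genes on every array (y axis, log2 units) by group (x axis), with the mean and SD of 3 arrays and a band for the lower quartile of all probe sets. PDF1.2 reaches 9.41 in an LBD37 overexpresser and 8.13 in an lbd38 array, AT1G66100 reaches 8.83 in lbd38, and THI2.1 and JMT stay below the band on all 18 arrays.

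PDF1.2b, the other defensin probe set, had 10.87, 9.12 and 9.75 in LBD37 overexpressers, against 7.98, 8.23 and 8.38 in depleted wild type. Those arrays did not overlap and the difference was 1.72 ± 0.41, or 3.30-fold. Without LBD37 overexpresser replicate 1 it was 1.24. LBD38 overexpressers had 9.04, 9.02 and 8.52, all above the depleted wild type, with a difference of 0.67 ± 0.41. The lbd38 mutant had 9.36, 8.62 and 10.49, against 7.69, 6.94 and 8.11 in replete wild type. It was 1.91 ± 0.41 higher, or 3.76-fold, with no overlap, and 1.41 higher without lbd38 replicate 3. The lbd37 mutant had 7.997, 7.74 and 8.13, overlapped replete wild type and differed by 0.38 ± 0.41. Depleted and replete wild type also overlapped, with a difference of 0.62 ± 0.41 that was 0.29 without replete wild-type replicate 2.

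The PDF1.2 and PDF1.2b probe sets followed each other closely, with Pearson's r = 0.93 over the 18 arrays and 0.84 after group means were removed, as a description of arrays that share their RNA and scaling. PDF1.2b was above the lower quartile on all 18 arrays. Its differences were smaller than those of PDF1.2 in LBD37 overexpressers, LBD38 overexpressers, lbd38 and the depletion comparison. The part of the shared probes of the PDF1.2b probe set in this was not tested. Arrays of 1 group also varied far more for these transcripts than for most. The within-group SD was 0.63 for PDF1.2 and 0.60 for PDF1.2b, each above 99.9% of probe sets, against a median of 0.12 over all probe sets.

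**Figure D2:**
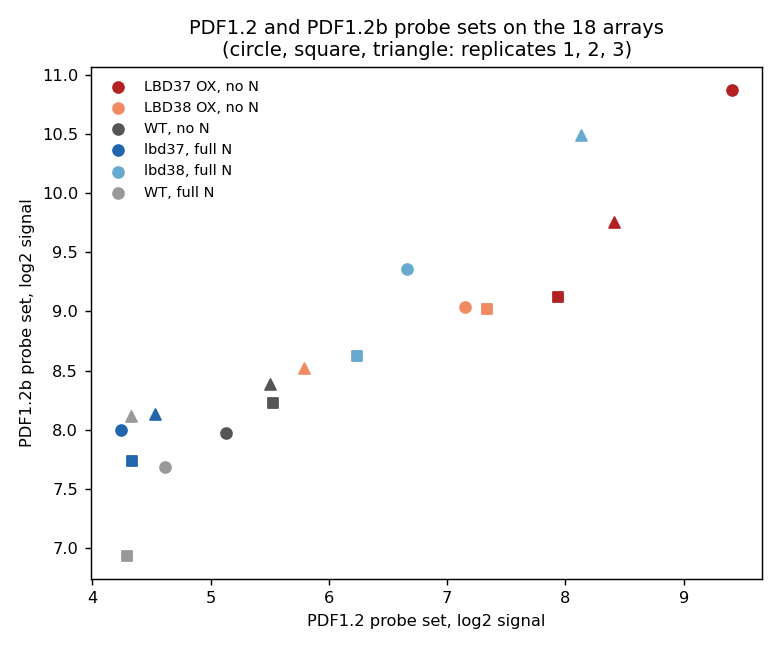
Log2 signal of the PDF1.2 probe set (x axis) against the PDF1.2b probe set (y axis) on the 18 arrays, coloured by group, with circle, square and triangle for replicates 1, 2 and 3. The points run along 1 rising band (r = 0.93), from replete wild type and lbd37 at the lower left to LBD37 overexpressers and lbd38 replicate 3 at the upper right.

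The thionin gene AT1G66100 had its high values elsewhere, in the nitrogen-replete groups. The lbd38 mutant read 8.83, 7.62 and 8.57, against 5.74, 5.91 and 7.38 in replete wild type. The groups did not overlap, and lbd38 was 2.00 ± 0.31 higher, or 4.00-fold. The lbd37 mutant read 6.51, 6.54 and 6.66, inside the range of replete wild type, with a difference of 0.23 ± 0.31. It was 0.74 without wild-type replicate 3, the high array of that group. Set against lbd38, lbd37 was lower by 1.78 ± 0.31 with no overlap.

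After nitrogen depletion AT1G66100 was low in all 3 groups. Depleted wild type read 5.07, 4.91 and 5.02, below every replete wild-type array, with a difference of -1.34 ± 0.31, or 2.54-fold lower. Without replete wild-type replicate 3 the difference was -0.82. LBD37 overexpressers read 4.80, 4.86 and 4.86, all just below depleted wild type, with a difference of -0.16 ± 0.31. LBD38 overexpressers read 4.76, 5.01 and 4.84 and overlapped it, with a difference of -0.13 ± 0.31. These SEs pool all 6 groups, among them replete wild type and lbd38 with SDs of 0.90 and 0.64. The SDs were 0.04 in LBD37 overexpressers, 0.13 in LBD38 overexpressers and 0.08 in depleted wild type. All 9 depleted arrays lay below their lower quartile, where a further decrease may not be measurable. The within-group SD of 0.46 was above 99.7% of probe sets.

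THI2.1, the other thionin, gave low and nearly level signals. They were 4.27, 4.22 and 4.48 in LBD37 overexpressers and 4.14, 4.18 and 4.22 in LBD38 overexpressers, against 4.17, 4.26 and 4.14 in depleted wild type. The lbd37 arrays read 4.47, 4.40 and 4.195 and the lbd38 arrays 4.55, 4.30 and 4.29, against 4.26, 4.35 and 4.58 in replete wild type. All 5 comparisons with wild type overlapped, and the differences ran from -0.20 ± 0.10 in the depletion comparison to 0.13 ± 0.10 in LBD37 overexpressers. THI2.1 was below the lower quartile on all 18 arrays, a level at which a small change may not be measurable. Its within-group SD of 0.12 was close to the median of all probe sets.

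JMT was also below the lower quartile on all 18 arrays, with small differences. LBD38 overexpressers had 5.05, 5.17 and 4.96 and LBD37 overexpressers 4.91, 5.01 and 4.62, against 4.58, 4.61 and 4.51 in depleted wild type. Neither overexpresser overlapped wild type. JMT was 0.49 ± 0.10 higher in LBD38 overexpressers, or 1.41-fold, and 0.28 ± 0.10 higher in LBD37 overexpressers, or 1.21-fold. The order of the 2 overexpressers was the reverse of that for PDF1.2, though their arrays overlapped for JMT. The lbd38 mutant had 4.77, 4.63 and 4.81, against 4.55, 4.48 and 4.28 in replete wild type, with no overlap and a difference of 0.30 ± 0.10. The lbd37 mutant, at 4.56, 4.32 and 4.32, overlapped it with a difference of -0.03 ± 0.10, and depleted and replete wild type overlapped with a difference of 0.13 ± 0.10.

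**Figure D3:**
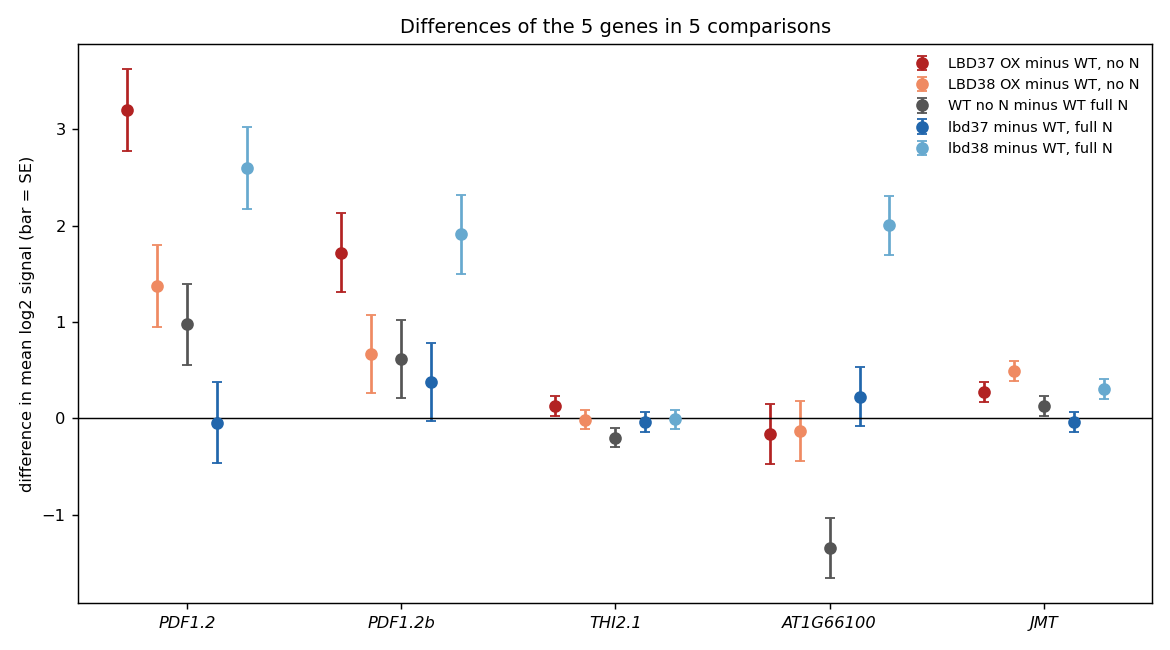
Difference in mean log2 signal (y axis, log2 units, bar = SE of the limma fit) of the 5 genes (x axis) in each comparison with wild type. PDF1.2 is at 3.20 in LBD37 overexpressers and 2.595 in lbd38, AT1G66100 is at 2.00 in lbd38 and -1.34 in the depletion comparison, and the THI2.1 points run from -0.20 to 0.13.

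The share of all probe sets past the threshold is the background for these genes. In LBD37 overexpressers it was 7.21% higher and 11.3% lower, and 2 of the 5 genes were among those higher. In LBD38 overexpressers it was 9.26% higher and 8.66% lower, and 2 of the 5 were among those higher. For depleted against replete wild type it was 23.5% higher and 26.6% lower, with 1 of the 5 lower. In lbd37 it was 0.136% higher and 0.0528% lower, with 0 of the 5. In lbd38 it was 0.589% higher and 0.598% lower, with 3 of the 5 higher. Because the genes were chosen on these arrays, nothing is read from those 5 counts. The count for LBD38 overexpressers was also the least steady: PDF1.2 dropped out of it when any 1 of 5 of the 6 arrays was left out, all but LBD38 overexpresser replicate 3. PDF1.2b dropped out of the lbd38 count without lbd38 replicate 1 or 3 or replete wild-type replicate 1 or 2, and with only the groups compared. PDF1.2 joined the depletion count, as a higher gene, after repeated quantile normalization and with only the groups compared. JMT joined the count for LBD37 overexpressers after centring on array medians, with array weights and without LBD37 overexpresser replicate 3.

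The backgrounds themselves depended on single arrays. Out of all probe sets 4203 passed in LBD37 overexpressers, against 2742 and 2736 without depleted wild-type replicate 1 or 2, and 4076 in LBD38 overexpressers, against 2603 without LBD38 overexpresser replicate 1. In lbd37 43 passed, against 11 to 21 when any 1 array other than replete wild-type replicate 3 was left out. In lbd38 270 passed, against 120 to 171 without lbd38 replicate 1 or 3 or replete wild-type replicate 1 or 2. Between the mutants 591 passed, against 292 to 388 without any 1 array.

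The balance of higher and lower calls over the whole array depended on scaling and, in LBD37 overexpressers, on 1 array. In LBD37 overexpressers 39.0% of calls were higher in the deposited scaling, against 49.8% after repeated quantile normalization and 50.5% after centring on array medians. In the deposited scaling it was 50.9% without LBD37 overexpresser replicate 3 and 48.8% with array weights. Without any 1 other array of that comparison it was 33.7% to 39.5%. In lbd38 the split was 49.6% as deposited and 61.1% after centring. The largest median shift over all probe sets in any scaling was -0.08, in the depletion comparison, and no difference of PDF1.2, AT1G66100 or JMT given above as non-overlapping changed sign between scalings.

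Other jasmonate and defence genes were read from 10 lists of 118 genes, of which 20 had a probe set with 1 listed gene. No such probe set measured MYC2, ORA59, ERF1, VSP2, LOX2, PR4 or PR1. The measured genes were 10 further defensin or thionin genes and 10 other genes, 8 of them of jasmonate synthesis, turnover and signalling, with EIN3 from the ethylene list and GRX480 from the salicylate list. In LBD37 overexpressers 1 of the 20 was higher and 3 were lower, with a median difference of -0.004, against 0.01 over all probe sets. In LBD38 overexpressers 1 was higher and 2 were lower, with a median of 0.04, against 0.01. These shares are near the background given above.

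GRX480 (AT1G28480), a glutaredoxin induced by salicylate that is known to repress PDF1.2 when overproduced, was lower in both overexpressers, where PDF1.2 was higher. Its log2 signal was 7.58, 7.48 and 7.85 in LBD37 overexpressers and 7.05, 7.67 and 7.54 in LBD38 overexpressers, against 8.87, 8.43 and 8.44 in depleted wild type. It was lower by 0.95 ± 0.17 in LBD37 overexpressers (1.93-fold, limma adjusted p = 0.00087) and by 1.16 ± 0.17 in LBD38 overexpressers (2.24-fold, limma adjusted p = 0.00012). In depleted wild type GRX480 was 1.82 ± 0.17 above replete wild type (3.54-fold, limma adjusted p = 7.4e-08), where PDF1.2 was higher too. In the lbd38 mutant it had 7.16, 7.03 and 7.54, against 6.97, 6.63 and 6.68 in replete wild type, a difference of 0.49 ± 0.17 that missed the threshold (limma adjusted p = 0.238). PDF1.2 was higher in lbd38 as well. The part of GRX480 in the PDF1.2 differences was not tested.

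OPCL1 (AT1G20510), a peroxisomal ligase of jasmonate synthesis, was lower by 0.68 ± 0.12 in LBD37 overexpressers (limma adjusted p = 0.00051) and by 0.53 ± 0.12 in LBD38 overexpressers (limma adjusted p = 0.0036). Its overexpresser arrays ran from 8.35 to 8.78, all below the 9.08 to 9.14 of depleted wild type. PDF2.2 (AT2G02100), a defensin gene outside the PDF1 group, was 0.35 ± 0.09 higher in LBD37 overexpressers (limma adjusted p = 0.0128) and 0.48 ± 0.09 higher in LBD38 overexpressers (limma adjusted p = 0.0010). The call in LBD37 overexpressers was lost without depleted wild-type replicate 1 (limma adjusted p = 0.076). PDF2.5 (AT5G63660), another defensin gene, was lower by 0.41 ± 0.12 in LBD37 overexpressers (limma adjusted p = 0.0287). That call was lost without LBD37 overexpresser replicate 3 (limma adjusted p = 0.139) and without depleted wild-type replicate 1 or 2 (0.087 and 0.090). The other 8 defensin and thionin genes passed in neither overexpresser, with differences between -0.16 and 0.48.

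**Figure D4:**
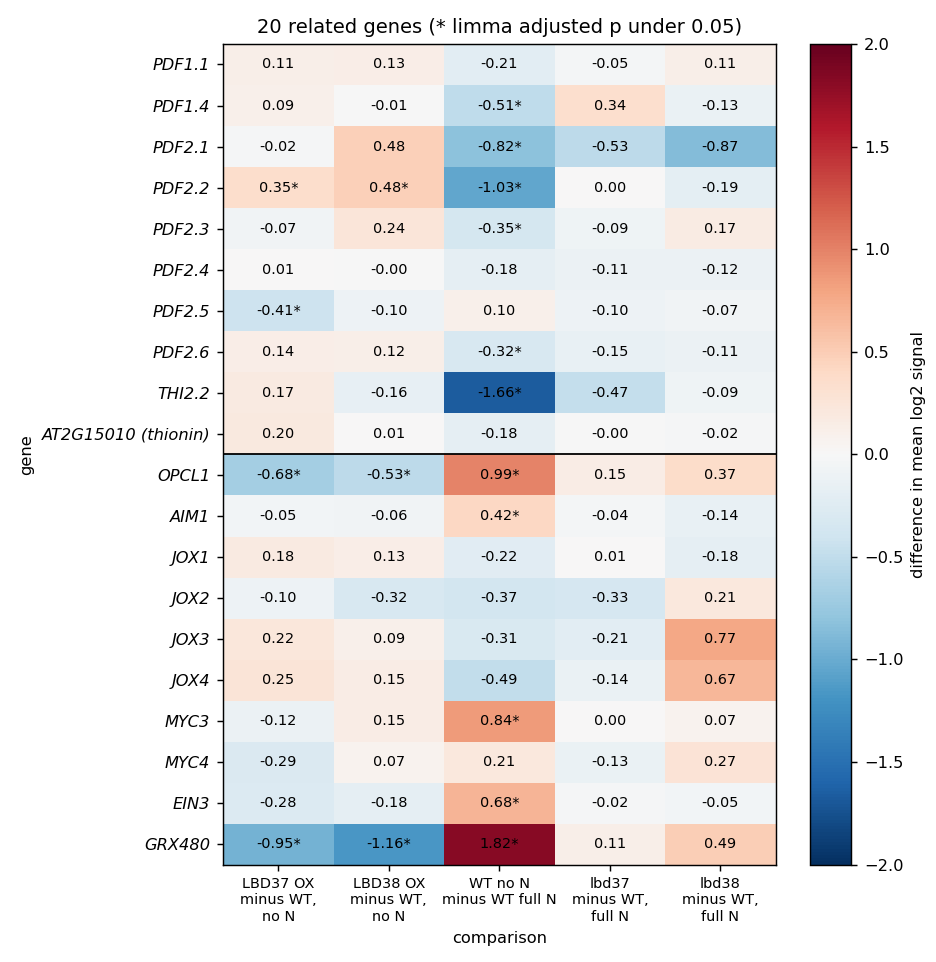
Difference in mean log2 signal of 20 related genes (rows) in 5 comparisons with wild type (columns), with colour and number both giving the log2 difference and * marking a limma adjusted p under 0.05. Defensin and thionin genes are above the black line and the other jasmonate, ethylene and salicylate genes below it. The depletion column holds 6 lower calls above the line and 5 higher calls below it, and the mutant columns hold 0 calls.

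Nitrogen depletion in wild type moved 11 of the 20, against 50.2% of all probe sets, so the share is near the background. All 6 lower genes were defensin or thionin genes, and all 5 higher genes were from the other 10. THI2.2 (AT5G36910), a thionin related to THI2.1, had 6.72, 6.45 and 6.93 after depletion, against 7.93, 8.30 and 8.85 in full nitrogen. It was lower by 1.66 ± 0.20 (3.16-fold, limma adjusted p = 1.2e-06), as AT1G66100 was lower there. PDF2.2 was lower by 1.03 ± 0.09 (limma adjusted p = 2.8e-08) and PDF1.4 (AT1G19610), which has 2 genes between it and JMT in the annotation, by 0.51 ± 0.12 (limma adjusted p = 0.0011).

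PDF2.1 was lower by 0.82 ± 0.25 (limma adjusted p = 0.0103), a call lost without replete wild-type replicate 3. PDF2.3 and PDF2.6 were lower by 0.35 ± 0.13 and 0.32 ± 0.10, with limma adjusted p = 0.033 and 0.0166. The PDF2.3 call was lost without depleted wild-type replicate 3 or replete wild-type replicate 1 or 3, and the PDF2.6 call without depleted or replete wild-type replicate 1. Over the 10 defensin and thionin genes the median difference was -0.33, against -0.07 over all probe sets. PDF1.2 differed in direction from these calls, at 0.97 in the same comparison.

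The 5 higher genes were GRX480, OPCL1, MYC3, EIN3 and AIM1. OPCL1 was higher by 0.99 ± 0.12 (limma adjusted p = 1.1e-06) and AIM1 (AT4G29010), a beta-oxidation enzyme used in jasmonate synthesis, by 0.42 ± 0.10 (limma adjusted p = 0.0017). MYC3 (AT5G46760) was higher by 0.84 ± 0.09 (limma adjusted p = 2.7e-07) and EIN3 (AT3G20770) by 0.68 ± 0.10 (limma adjusted p = 1.8e-05). None of the 4 genes JOX1 to JOX4, which encode enzymes that hydroxylate jasmonic acid, passed, with differences from -0.49 to -0.22. Fitted on only the wild-type arrays of this comparison, JOX2, JOX3 and JOX4 did pass (limma adjusted p = 0.021, 0.039 and 0.0018), and with array weights JOX1 did (0.048).

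Organ markers moved with depletion as well. Of 4 root markers, EXPA7, EXPA18 and PRX44 were higher and PYK10 lower, and their summed signal ran from 11.96 to 12.19 in depleted wild type, against 12.77 to 12.83 in replete wild type (log2 of the sum). PYK10, the brightest of the 4, averaged 11.33 and 12.60 in those groups, so the sum ran with it and against the other 3, which were higher by 0.51 to 0.94. All 3 leaf markers measured, LHCB4.1, LHCB4.2 and RCA, were lower, and their sum ran from 13.82 to 13.95, against 14.44 to 14.49. In LBD37 overexpressers 2 of 4 root markers were lower (EXPA7 by 0.62 and EXPA18 by 0.48) and in LBD38 overexpressers 1 of 3 leaf markers was higher (LHCB4.1, 0.34). Root sums were 11.87 to 11.97 in LBD37 overexpressers and 11.90 to 12.05 in LBD38 overexpressers, and leaf sums 13.66 to 14.19 and 13.94 to 14.15. Without depleted wild-type replicate 1 these 3 calls and that of EXPA7 in the depletion comparison were lost. EXPA18 also needed depleted wild-type replicate 2 and LBD37 overexpresser replicate 3, and LHCB4.1 needed LBD38 overexpresser replicate 1. The EXPA18 call in LBD37 overexpressers was also lost after repeated quantile normalization, after centring on array medians and with array weights. With only the groups compared, both EXPA18 and EXPA7 lost their calls in LBD37 overexpressers. No marker passed in either mutant, where root sums were 12.67 to 12.78 in lbd37 and 12.77 to 12.95 in lbd38. No root or leaf marker read below 6.60 on any array, and 0 of 6 flower and seed markers had a probe set with 1 listed gene. The part of organ proportions in the defensin and thionin differences was not tested.

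In the mutants 0 of the 20 related genes passed, by limma's standard fit or by its trended robust one. At an unadjusted p under 0.05 there were 3 in lbd37 and 6 in lbd38, where 7.42% and 11.7% of all probe sets reached that level. The medians of the 20 were -0.07 in lbd37 and -0.04 in lbd38, against -0.02 and -0.04 over all probe sets. The lbd38 median pooled -0.10 over the 10 defensin and thionin genes and 0.24 over the other 10. In lbd37 those medians were -0.09 and -0.03. In lbd38 the 6 were OPCL1, JOX3, JOX4, GRX480, PDF2.1 and PDF2.2, with differences of 0.37, 0.77, 0.67, 0.49, -0.87 and -0.19.

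Of the 4 jasmonate oxidase genes, JOX2, JOX3 and JOX4 were high on lbd38 replicate 3, the array with the highest PDF1.2 and PDF1.2b of its group. JOX1 (AT3G11180) was not, at 4.66, 4.75 and 4.58 in lbd38, all below the 4.76, 4.92 and 4.86 of replete wild type. JOX4 (AT2G38240) read 5.91, 5.89 and 7.81 in lbd38, against 5.86, 6.02 and 5.72 in replete wild type. JOX3 (AT3G55970) read 4.48, 4.88 and 6.32, against 4.57, 4.53 and 4.27. JOX2 (AT5G05600) read 7.43, 7.35 and 8.71, against 7.75, 7.55 and 7.56. Replicate 3 was the highest of the 6 arrays for each of these 3 genes, and for JOX2 the other lbd38 arrays were below all of wild type. Without that array the differences were 0.03 for JOX4, 0.22 for JOX3 and -0.23 for JOX2, while PDF1.2 and AT1G66100 remained 2.03 and 1.89 above wild type. AT1G66100 was highest on replicate 1 instead.

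**Figure D5:**
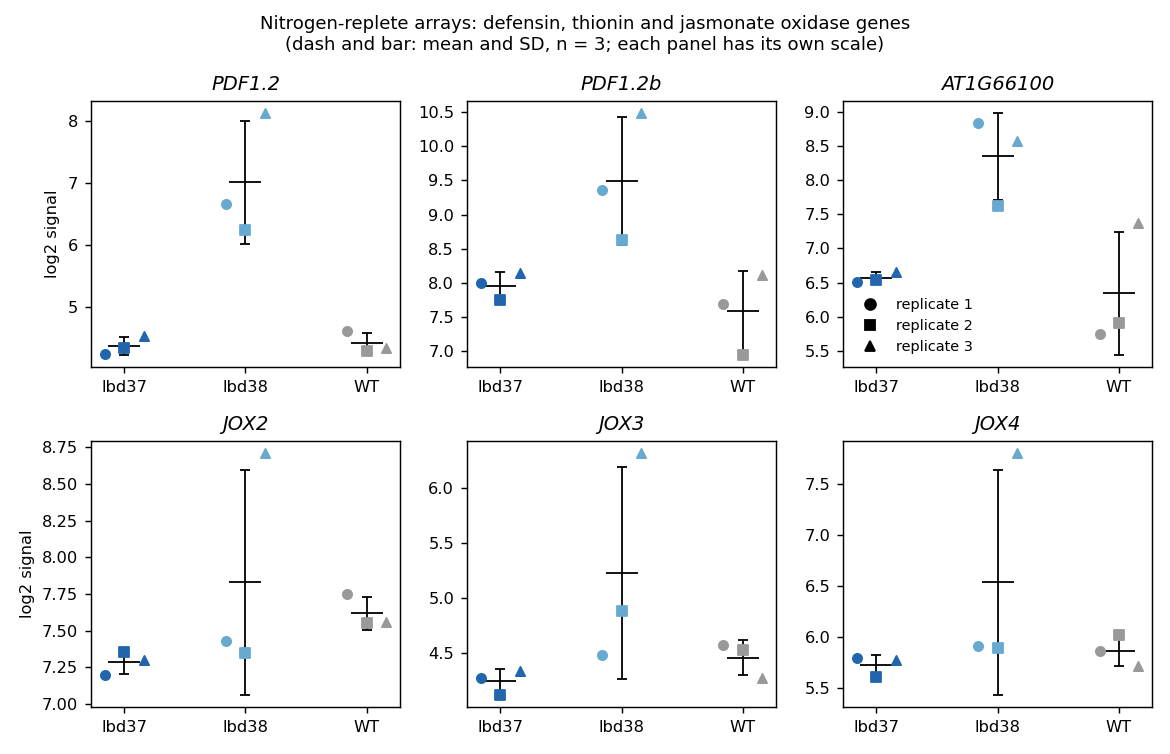
Log2 signal (y axis, own scale in each panel) of PDF1.2, PDF1.2b, AT1G66100, JOX2, JOX3 and JOX4 on the 9 nitrogen-replete arrays, by genotype (x axis), with the mean and SD of 3 arrays. The triangle of lbd38, replicate 3, is the highest point for every gene but AT1G66100, and all 3 lbd38 points are above wild type for PDF1.2, PDF1.2b and AT1G66100.

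Between the mutants, 1.5% of all probe sets were higher and 1.1% lower in lbd37 than in lbd38, and 1 of the 20 related genes passed. PDF1.4 had 5.57, 5.87 and 5.72 in lbd37, against 5.33, 5.20 and 5.23 in lbd38. It was 0.47 ± 0.12 higher in lbd37 (limma adjusted p = 0.0368), where PDF1.2, PDF1.2b and AT1G66100 were lower. The call was lost after centring on array medians (limma adjusted p = 0.067) and without lbd37 replicate 2 or 3 or any lbd38 replicate (0.071 to 0.196).

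The genes whose signals over the 18 arrays were most like each of the 5 are given by Pearson's r, as a description of arrays that share group and scaling. For PDF1.2 they were AT2G36090 (r = 0.84), AT2G28080 (0.84), AT4G10390 (0.83), AT1G20823 (0.80) and AT1G31040 (0.79). With group means removed those 5 values dropped to between 0.13 and 0.44, below the 0.84 that PDF1.2b kept. AT2G36090, the most alike, averaged 7.63 in LBD37 overexpressers and 7.50 in LBD38 overexpressers, against 7.13 in depleted wild type, and 7.17 in lbd38 and 6.64 in lbd37, against 6.93 in replete wild type. For PDF1.2b they were AT1G31040 (0.77), CSLC04 (0.74) and AT2G28080 (0.74), leaving out PDF1.2 itself.

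For AT1G66100 the values were higher: AT1G68600 (0.95), AT5G19970 (0.93) and scpl31 (0.93), with 0.65, 0.45 and 0.51 after group means were removed. AT1G68600 averaged 7.85 in lbd38 and 6.62 in lbd37, against 6.16 in replete wild type, and scpl31 averaged 7.24 and 6.03, against 6.37. For JMT they were AT3G03770 (0.89), AT5G20885 (0.89) and AT5G05790 (0.88), and for THI2.1, whose signals are dim and nearly level, AT5G28550 (0.83), AT3G25200 (0.81) and AT1G11470 (0.80). Among the 5 genes themselves, PDF1.2 and JMT had r = 0.73 over the arrays and 0.30 with group means removed, and PDF1.2 and AT1G66100 had -0.17 and 0.14.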

How the data were processed

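Whole-seedling RNA was labelled with biotin and hybridised to Affymetrix arrays, per the labels' protocols. The deposited values are log2 signals, 1 per probe set and array, made by the authors with RMA, a method that corrects background, scales arrays to each other and summarises probes, per the submitters' processing notes, which name no version. Each of the 18 columns carries its sample's identifier, and groups and replicate numbers came from the titles. Of 22810 probe sets, 64 controls were left out. Gene names came from the platform's gene table, matched to TAIR10.1 symbols: 13513 probe sets list 1 gene, 503 several and 8730 none.

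limma 3.58.1 in R 4.3.3 fitted 6 group means to all 18 arrays (12 residual degrees of freedom), with Benjamini-Hochberg adjustment over 22746 probe sets in each comparison and a threshold of 0.05. The script was tested on simulated data. A SE comes from that fit and pools the spread of all 6 groups. It can be wider or narrower than the groups compared would give alone. Array number limits precision, and p-values rest on that pooled spread between replicates the labels call biological.

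The 5 genes, the gene lists and the tests were chosen with earlier results of these data known. The text names all 5 genes, up to 4 passing genes with the largest change per list and comparison, GRX480 and 7 marker genes where measured, and for each of the 5 the 3 (PDF1.2: 5) genes of highest Pearson's r. Genes that reached only an unadjusted p, and those with oppositely placed mutants, were named after their values were seen. Also named outside that rule were PDF2.3 and PDF2.6 in the depletion comparison, and JOX1 and JOX2. Where a gene has several probe sets, that with the highest mean was used. Alternatives were quantile normalization repeated, a replicate block, centring on array medians, leaving out the dimmest 40% of probe sets, trended robust eBayes, array weights, probe sets with 1 listed gene, only the groups compared, Spearman's rho for likeness, and leaving out each array. Promoter and probe sequences were not analysed here.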

Additional observations from a re-analysis of the deposited data

Results flagged for a closer look

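Between the mutants PDF1.4, a defensin gene, was 0.47 higher in lbd37 than in lbd38, the only one of the related genes whose difference between 2 lines passed (limma adjusted p = 0.0368). Other genes had every array of 1 line above the wild-type mean and every array of the other line below it, though the difference between the lines did not pass. In lbd37 against lbd38 these were JOX3 (-0.98, limma adjusted p = 0.075), JOX4 (-0.81, limma adjusted p = 0.236) and MYC4 (-0.39, limma adjusted p = 0.155), with lbd38 above wild type and lbd37 below. The same held for the defensin gene PDF2.3 (-0.26, limma adjusted p = 0.448). In depletion the thionin gene THI2.2 was 0.33 higher in LBD37 than in LBD38 overexpressers (limma adjusted p = 0.435), on opposite sides of wild type. With array weights JOX3 and MYC4 did pass between the mutants (limma adjusted p = 0.0078 and 0.0051), and JOX3 also without lbd38 replicate 1 (0.0101). JOX3 and JOX4 were both highest on lbd38 replicate 3, and neither passed without that array. JOX3 read 6.32 on it, against 4.48 and 4.88 on the other lbd38 arrays.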

How the results depend on the processing

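Of 210 values of the 5 genes under alternatives other than leaving out an array, 209 moved by less than 1 SD of the arrays within groups, as did all 210 leave-one-out values. The exception was AT1G66100 in LBD37 overexpressers, at -0.24 after repeated quantile normalization against -0.16, which kept its direction. Most of this was fixed beforehand, so nothing is read from these counts. Leaving out 1 array of a group cannot move a difference by that SD. The replicate block, trended robust eBayes, fewer probe sets and only the groups compared return the same difference of group means. Only repeated quantile normalization, centring and array weights could move a value that far. Leaving out the dimmest 40% of probe sets left PDF1.2b alone of the 5, so the other 4 have no value there. Counts of related genes past the threshold kept within 1.5 times except in LBD37 overexpressers, where 4 became 2 with only the groups compared (PDF2.2 and PDF2.5 lost) and ran from 2 to 5 with 1 array left out, the 2 without depleted wild-type replicate 1. Of the 5 genes most like PDF1.2, 3 were also chosen by Spearman's rho. Same-numbered arrays deviated together at correlations of -0.20 to 0.26. Differently numbered arrays were not set beside them, so whether the numbers pair arrays was not tested. Each number occurs once in every group, so the replicate block can change the SE of a difference but not the difference. With it PDF1.2 in LBD37 overexpressers had 3.20 ± 0.44, and counts of related genes stayed within 1.5 times. The block also put JMT in LBD37 overexpressers and PDF1.2b between the mutants past the threshold. The PDF1.2 call in LBD38 overexpressers and the PDF1.2b call in lbd38 were also lost with trended robust eBayes and with array weights, and the PDF1.2b call with only the groups compared. Calls over the whole array were 4203 in LBD37 overexpressers against 2067 with only the groups compared, 43 in lbd37 against 76 with array weights and 68 with only the groups compared, and 591 between the mutants against 1882 with array weights. The cause of these shifts was not tested. Over only the 13513 probe sets with 1 listed gene, fewer by construction, they were 2182 in LBD37 overexpressers, 2040 in LBD38 overexpressers, 6212 for depletion, 25 in lbd37, 111 in lbd38 and 272 between the mutants. THI2.1, JMT and depleted AT1G66100 lay below the arrays' lower quartile, which limits what a difference can show.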
